A study of Mus musculus with 12 samples.

Results

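Birc5, Tk1, Syngr2, Tmc6, Socs3, Cyth1, Usp36, Timp2 and C1qtnf1 are neighbours on mouse chromosome 11, and their RNA levels are described here in mouse embryonic stem cells (mESCs) that lack HMGN1, HMGN2 or both. The 9 genes were selected on their levels in these same libraries, by which knockout line lowers each of them. They are 9 of 23412 genes in the count tables and 9 of the 23 listed genes that lie in or reach into a stretch of 900 kb, whose ends were set with those levels in view. The levels and fold changes given for the 9 members are therefore a description with no test of any member. Their calls are counted beside those of all genes, and nothing is read from the counts. Tests are given for 10 of the other 14 genes of the stretch, its flanks and lists of related genes. Because the ends of the stretch were set in that way, the tests of its other genes are not independent of that choice.

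Poly-A-selected RNA was sequenced from 4 groups of male v6.5 mESCs with 3 replicates each, 12 libraries in all. The WT cells are the unedited line. The Hmgn1-/- line carries a homozygous deletion of a single base in Hmgn1, and the Hmgn2-/- line a homozygous insertion of a single base in Hmgn2; both are frameshifts made by CRISPR-Cas9 editing. The Hmgn1-/-Hmgn2-/- line, called the double knockout, was made from the Hmgn2-/- line by editing Hmgn1, and carries both changes. Each knockout line is 1 clone grown from an edited cell, so genotype and clone cannot be told apart, and the replicates measure the spread between cultures of that clone. Gene counts per library added up to between 17337908 (Hmgn2-/- replicate 3) and 31448468 (WT replicate 1). Hmgn2-/- replicate 3 also stood apart from replicates 1 and 2 of its line, with a chi-square per degree of freedom of 42.2 and 23.8. Other pairs of replicates within a group ran from 3.77 to 14.2. Levels are given as CPM, counts scaled to a common library total, after scaling by the trimmed mean of M-values (TMM), and p-values measure the spread between these samples only. In these bulk samples, fewer cells with a transcript and less of it per cell cannot be told apart.

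HMGN1 and HMGN2 are small proteins that bind nucleosomes, with enrichment at enhancers and promoters of active genes, and loosen chromatin packing. The 9 members share a place on the chromosome but no pathway: they serve cell division, nucleotide salvage, membrane traffic, cytokine feedback, the nucleolus and the extracellular matrix. Neighbouring genes often share an open or closed stretch of chromatin, and both alleles of an autosomal gene are normally transcribed in mESCs.

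The edited genes were read first, as a check of the labels. Hmgn1 stood at 662, 599.8 and 614 CPM in the WT replicates, 138, 139 and 141 in Hmgn1-/-, 545, 556 and 640 in Hmgn2-/-, and 21.5, 19.9 and 21.4 in the double knockout. Hmgn2 stood at 137, 123 and 120 CPM in WT, 105, 113 and 109 in Hmgn1-/-, 50.7, 54.5 and 53.7 in Hmgn2-/-, and 53.8, 50.5 and 54.2 in the double knockout. Each edited gene was low in every library whose label names its loss, with no overlap with WT, so the 12 labels and the levels match. Hmgn2 in Hmgn1-/- also lay below WT with no overlap, but at 86.5% of the WT mean, against 42.0% in Hmgn2-/- and 41.8% in the double knockout. The Hmgn1 transcript left in the double knockout was lower than in Hmgn1-/-, by a log2 fold change of -2.73 (SE 0.06, 3 libraries a group, adjusted p = 7.83e-13, edgeR's quasi-likelihood test, adjusted by Benjamini-Hochberg over all genes tested). The 10 mESC markers, with Pou5f1 the most abundant in every group and none at 0, summed to between 7133 and 8369 CPM in the 12 libraries.

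That sum hides changes of single mESC markers. By edgeR, Nanog was lower in all 3 lines, by -0.32 (SE 0.06, adjusted p = 0.00140) in Hmgn1-/-, -0.50 (SE 0.08, adjusted p = 0.00152) in Hmgn2-/- and -0.45 (SE 0.07, adjusted p = 0.000195) in the double knockout. The first of these calls is lost without Hmgn1-/- replicate 2 (0.0112; range over alternatives 3.38e-05 to 0.0112) and the second without WT replicate 3 (0.0117; range 1.68e-06 to 0.0117). Esrrb was higher in Hmgn1-/- by 0.47 (SE 0.06, adjusted p = 2.81e-05) and in the double knockout by 0.28 (SE 0.06, adjusted p = 0.00251). The latter is lost without WT replicate 2 (0.0114) or 3 (0.0244) or double knockout replicate 2 (0.024), over a range of 0.00014 to 0.0244. For Hmgn2-/- the Esrrb change of 0.32 (SE 0.08, adjusted p = 0.0124) passed by DESeq2 (0.00126), with no filter (0.00834), in a fit of all libraries (0.00155) and without Hmgn2-/- replicate 3 (0.00216), over a range of 0.00126 to 0.0917. Utf1 was higher in Hmgn1-/- by 0.29 (SE 0.06, adjusted p = 0.00359), lost without WT replicate 3 (0.0105) or Hmgn1-/- replicate 2 (0.0296) or 3 (0.0127), over a range of 8.38e-05 to 0.0296. Its change of 0.21 (SE 0.06, adjusted p = 0.0186) in the double knockout passed with the replicate block (0.00414) and with no filter (0.00452), over a range of 0.00414 to 0.0956. The other 7 markers were not called against WT by edgeR with all libraries; of the 10, 4, 4 and 5 had an unadjusted p under 0.05 and DESeq2 called 3, 2 and 2. Over all genes tested, edgeR called 10.1%, 6.66% and 10.2% lower and 7.28%, 3.3% and 7.79% higher in the 3 lines.

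RefSeq start sites give promoter windows for 8 of the 9 members in GRCm38.p6, the build of the mm10 coordinates used here. The 250 bases before the start are printed for 5 members that part in their levels: Birc5 (chr11:117848987-117849236, plus strand) and Tk1 (chr11:117826015-117826264, minus strand) were low in Hmgn2-/-, and Usp36 (chr11:118290245-118290494, minus strand) and Timp2 (chr11:118355412-118355661, minus strand) were lowest in Hmgn1-/-. Socs3 (chr11:117969367-117969616, minus strand) lies between them and was low in neither. The Socs3 window lies within the annotated span of the gene, which reaches 117970336. Part of the Tk1 window lies within Tk1, which reaches 117826087, and the Tmc6 window searched below lies within Tmc6. Such windows precede 1 listed start and not the outermost end of the gene. Capitals mark matches on either strand to the GC box GGGCGG, the CCAAT box CCAAT and the STAT motif TTCNNNGAA.
Birc5: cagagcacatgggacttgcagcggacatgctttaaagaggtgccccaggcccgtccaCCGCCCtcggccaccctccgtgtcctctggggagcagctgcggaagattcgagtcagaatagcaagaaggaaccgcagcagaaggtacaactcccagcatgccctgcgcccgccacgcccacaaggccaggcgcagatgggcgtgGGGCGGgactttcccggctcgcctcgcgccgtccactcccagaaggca
Tk1: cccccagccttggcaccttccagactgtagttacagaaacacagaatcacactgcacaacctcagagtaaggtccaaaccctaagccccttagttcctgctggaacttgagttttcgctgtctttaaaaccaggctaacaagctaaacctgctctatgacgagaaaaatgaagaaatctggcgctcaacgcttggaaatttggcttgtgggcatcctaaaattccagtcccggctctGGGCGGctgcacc
Socs3: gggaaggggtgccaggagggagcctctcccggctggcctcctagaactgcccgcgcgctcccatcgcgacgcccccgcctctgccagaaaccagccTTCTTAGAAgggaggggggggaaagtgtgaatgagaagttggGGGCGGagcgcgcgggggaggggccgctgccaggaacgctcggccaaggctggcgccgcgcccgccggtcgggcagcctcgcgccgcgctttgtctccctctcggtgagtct
Usp36: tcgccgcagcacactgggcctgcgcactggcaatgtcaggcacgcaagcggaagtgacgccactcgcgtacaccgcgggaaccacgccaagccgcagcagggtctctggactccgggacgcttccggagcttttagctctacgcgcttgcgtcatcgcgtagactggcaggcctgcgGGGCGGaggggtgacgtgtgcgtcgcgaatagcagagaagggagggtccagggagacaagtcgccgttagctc
Timp2: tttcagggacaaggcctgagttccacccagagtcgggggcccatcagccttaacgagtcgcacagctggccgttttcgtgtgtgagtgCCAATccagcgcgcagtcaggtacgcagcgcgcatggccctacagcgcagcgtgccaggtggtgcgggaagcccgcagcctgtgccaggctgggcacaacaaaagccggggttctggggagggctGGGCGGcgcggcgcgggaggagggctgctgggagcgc

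The GC box stood in every one of these 5 windows, with 2 matches before Birc5 and 1 before each of Tk1, Socs3, Usp36 and Timp2. Over all 32841 windows of this length, 32.8% held it. The STAT motif stood before Socs3, which STAT3 is known to induce, before 1 of the 3 start sites of Cyth1, and in 7.02% of all windows. The CCAAT box stood before Timp2, before another start site of Cyth1, and in 33.9% of all. Syngr2 had 4 GC boxes and Tmc6 had 1, while the start sites of Cyth1 had 1, 6 and 0. The E-box CACGTG, the cell cycle homology letters TTTGAA and the E2F letters TTGGCGC and TTCGCGC were searched on both strands and matched no member's window; 6.02%, 16.0%, 1.97% and 1.28% of all windows held them. CpG dinucleotides numbered 19 before Birc5, 26 before Socs3, 28 before Usp36 and 21 before Timp2, against 6 before Tk1 and a median of 6 over all windows. A match is a description and not a bound site.

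Birc5 encodes survivin, a subunit of the chromosomal passenger complex and a member of the inhibitor of apoptosis family. Its level was 152, 148 and 147 CPM in the WT replicates and 146, 139 and 156 in Hmgn1-/-. It was 67.3, 69.2 and 87.2 CPM in Hmgn2-/- and 68.8, 77.7 and 72.0 in the double knockout. All Hmgn2-/- and double knockout libraries lay under every WT library, and the Hmgn1-/- libraries fell around the WT ones. Against WT the log2 fold change was -0.02 (SE 0.06) in Hmgn1-/-, -0.99 (SE 0.10) in Hmgn2-/- and -1.03 (SE 0.06) in the double knockout, 3 libraries a group in each case as in all that follow. Tk1 encodes the cytosolic thymidine kinase that salvages thymidine for DNA synthesis. It stood at 105, 103 and 102 CPM in WT, 100.5, 114 and 105 in Hmgn1-/-, 54.1, 60.3 and 67.5 in Hmgn2-/-, and 53.7, 62.4 and 58.6 in the double knockout. The same libraries were low as for Birc5, with no overlap with WT. Its log2 fold changes against WT were 0.05 (SE 0.06), -0.76 (SE 0.09) and -0.83 (SE 0.07) in the same order of lines. Of all genes tested, 42.0%, 35.8% and 42.4% had no overlap with WT in that order.

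Syngr2 encodes a synaptogyrin, a membrane protein of small vesicles. Its level was 48.4, 46.4 and 51.0 CPM in WT, 45.6, 48.4 and 42.4 in Hmgn1-/-, 25.7, 27.0 and 30.3 in Hmgn2-/-, and 26.7, 28.4 and 26.6 in the double knockout. The lines with the Hmgn2 edit formed a lower cluster apart from both other groups. The log2 fold changes against WT were -0.09 (SE 0.07), -0.81 (SE 0.10) and -0.83 (SE 0.07). Tmc6, a transmembrane channel-like gene, stood at 28.3, 27.5 and 24.96 CPM in WT and 34.4, 29.7 and 29.7 in Hmgn1-/-. It stood at 15.4, 14.2 and 14.4 CPM in Hmgn2-/- and 15.0, 17.1 and 15.0 in the double knockout. Hmgn1-/- libraries lay above all WT libraries, and those of the other lines lay below them. The log2 fold changes were 0.22 (SE 0.09), -0.87 (SE 0.10) and -0.78 (SE 0.09). Tmc6 shares exon sequence with Tmc8 on the opposite strand, and Tk1 shares some with Afmid; Syngr2 and Afmid also share exons with the readthrough gene Gm20708, and C1qtnf1 with Gm11747 on the opposite strand. The counting strand is not given in the sources used here, so reads from such overlaps may have been assigned to either gene.

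Socs3 encodes a feedback inhibitor of the JAK kinases and of gp130, the receptor chain through which LIF acts on STAT3 in mESCs. It stood at 159.9, 140.1 and 154 CPM in WT, 179.8, 154 and 177 in Hmgn1-/-, 166, 134 and 166 in Hmgn2-/-, and 158, 139.7 and 163 in the double knockout. In every knockout line its libraries overlapped those of WT. The log2 fold changes were 0.18 (SE 0.07), 0.05 (SE 0.10) and 0.03 (SE 0.07), so Socs3 was the member with no lowering in any line.

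Usp36 encodes a deubiquitinase of the nucleolus. Its level was 113, 126 and 116 CPM in WT, 66.5, 65.7 and 59.1 in Hmgn1-/-, 147, 129 and 117 in Hmgn2-/-, and 138, 129 and 122 in the double knockout. All 3 Hmgn1-/- libraries lay below every WT library, while those of the other lines overlapped WT. Its log2 fold change was -0.89 (SE 0.07) in Hmgn1-/-, 0.16 (SE 0.09) in Hmgn2-/- and 0.14 (SE 0.06) in the double knockout. Cyth1 encodes cytohesin-1, which loads GTP onto ARF proteins of membrane traffic. It stood at 5.57, 4.47 and 5.69 CPM in WT, 3.60, 2.05 and 3.26 in Hmgn1-/-, 4.95, 3.82 and 4.82 in Hmgn2-/-, and 5.37, 5.06 and 5.39 in the double knockout. Again the Hmgn1-/- libraries alone lay apart from WT. The log2 fold changes were -0.82 (SE 0.21), -0.22 (SE 0.17) and 0.00 (SE 0.15).

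Timp2 encodes a secreted inhibitor of matrix metalloproteinases. Its level was 5.78, 6.05 and 8.09 CPM in WT, 2.84, 2.86 and 2.75 in Hmgn1-/-, 4.68, 4.47 and 4.93 in Hmgn2-/-, and 4.45, 5.11 and 5.39 in the double knockout. Every knockout library lay below every WT library, the Hmgn1-/- ones lowest of all. The log2 fold changes were -1.24 (SE 0.18), -0.50 (SE 0.17) and -0.42 (SE 0.16). C1qtnf1 encodes a secreted protein with a C1q-like domain and gave few reads: 54, 29 and 34 counts in WT and 1, 0 and 1 in Hmgn1-/-. It gave 37, 29 and 27 counts in Hmgn2-/- and 45, 34 and 45 in the double knockout. The Hmgn1-/- line was thus nearly without C1qtnf1 counts, and the other lines overlapped WT. Pooled over replicates and scaled by library totals, its level in Hmgn1-/- was 1.92% of WT, with an exact (Clopper-Pearson) 95% interval of 0.230% to 7.10%. The same ratio was 88.4% (66.6% to 117%) in Hmgn2-/- and 103% (79.6% to 134%) in the double knockout. Such intervals cover counting error only.

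**Figure D1:**
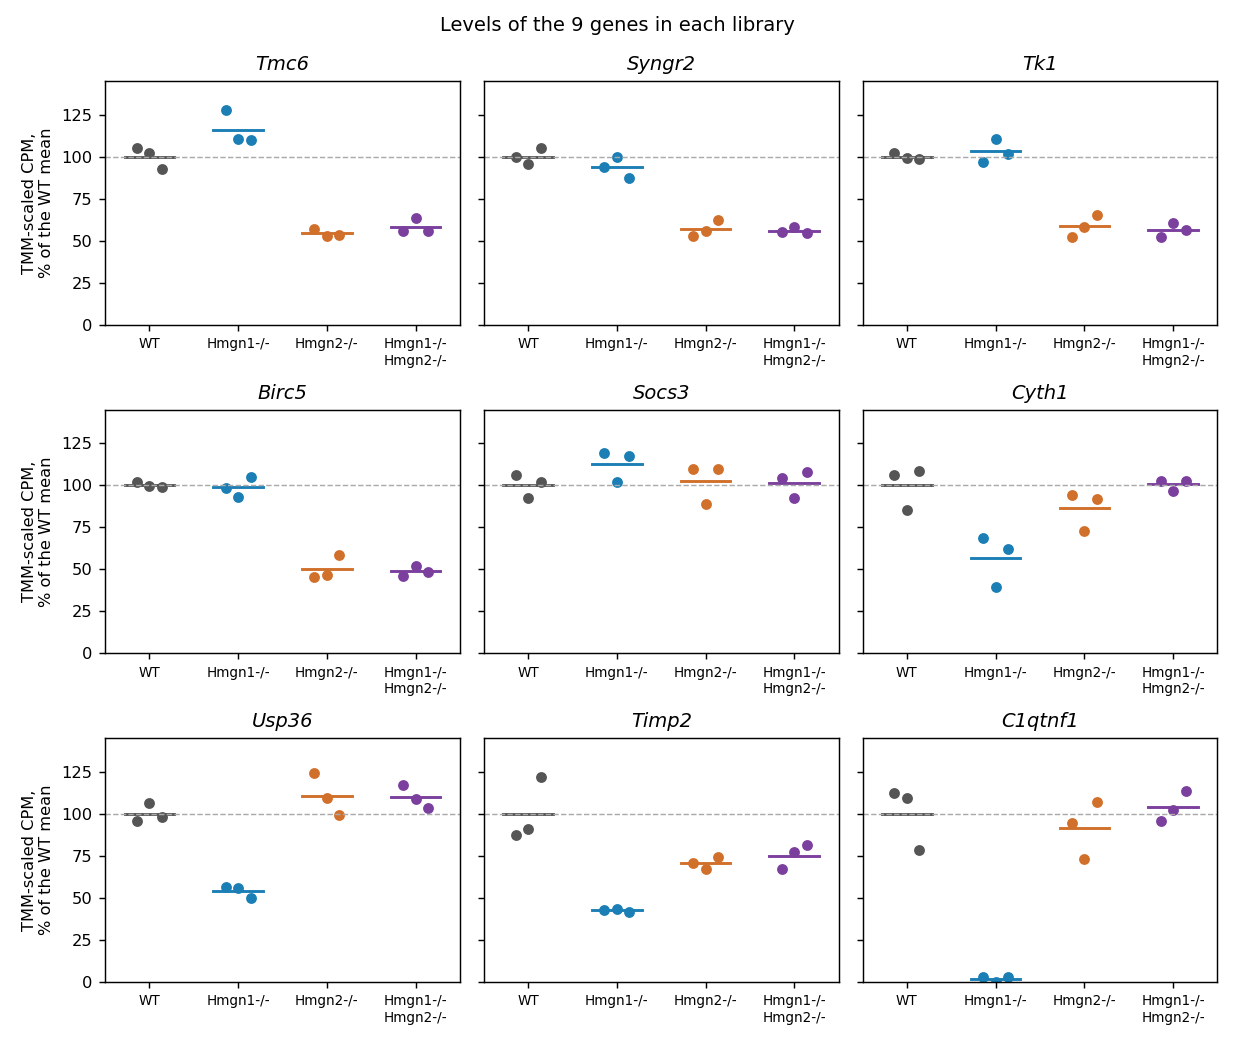
TMM-scaled CPM of each member in the 12 libraries as a percentage of the WT mean; points are libraries, bars are means of 3 replicates and the dashed line is 100%. Tmc6, Syngr2, Tk1 and Birc5 are low in Hmgn2-/- and the double knockout, while Cyth1, Usp36, Timp2 and C1qtnf1 are lowest in Hmgn1-/-.

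As shares of the WT mean, Birc5 stood at 50.03% in Hmgn2-/- and 48.9% in the double knockout, Tk1 at 58.6% and 56.3%, Syngr2 at 57.0% and 56.0%, and Tmc6 at 54.5% and 58.3%. For each of these genes the gap between those lines was smaller than the spread of the Hmgn2-/- or the double knockout replicates. In Hmgn1-/- the same genes stood between 93.6% (Syngr2) and 116% (Tmc6). The order turned over for the members farther along the chromosome. Usp36 stood at 53.9% of WT in Hmgn1-/- but 111% and 110% in Hmgn2-/- and the double knockout. Cyth1 stood at 56.7%, 86.4% and 101% in these lines, and Timp2 at 42.4%, 70.7% and 75.0%.

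Calls were made at an adjusted p under 0.01 in edgeR's quasi-likelihood test, and a stricter rule also asks for a log2 fold change of at least 1 in size. Because the members were selected on these contrasts, nothing is read from their counts of calls. In Hmgn1-/- against WT, 4 of 9 members were called lower (Cyth1, Usp36, Timp2 and C1qtnf1), where 10.1% of all 13917 genes tested were called lower and 7.28% higher; Cyth1 drops out without WT replicate 2 or 3 or any Hmgn1-/- replicate, which leaves 3. Under the stricter rule the count was 2 (Timp2 and C1qtnf1), beside 5.08% of all genes. In Hmgn2-/- against WT, 4 of 9 were called lower (Tmc6, Syngr2, Tk1 and Birc5), beside 6.66% of all 14047 genes lower and 3.3% higher. Under the stricter rule edgeR called 0 of the 9, beside 4.38% of all, and DESeq2 called 0, beside 787 genes in all. Leaving out WT replicate 2, WT replicate 3 or Hmgn2-/- replicate 3 brought Birc5 in, a count of 1. At an unadjusted p under 0.05 there were 5 members, beside 4358 of all 14047 genes. In the double knockout against WT, the 4 called lower were again Tmc6, Syngr2, Tk1 and Birc5, beside 10.2% of all 14128 genes lower and 7.79% higher. Under the stricter rule it was 1 (Birc5), beside 5% of all, and 0 without double knockout replicate 1. DESeq2 also called 1 under that rule, beside 834 genes in all. At an unadjusted p under 0.05 there were 6 members, beside 5499 of all 14128 genes. All 9 members passed the filter on low counts in all 6 comparisons. The WT libraries are shared by these 3 comparisons, so their values stand side by side and no overlap is given as a result.

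Whether the double knockout follows a single knockout can be read from the knockout lines alone, without WT. Against its parent, the Hmgn2-/- line, the double knockout gave log2 fold changes of the members that ran from -0.06 (Tk1, SE 0.10) to 0.23 (Cyth1, SE 0.15), with 0.20 (SE 0.23) for C1qtnf1. Only the Cyth1 libraries of these lines did not overlap, with 5.06 CPM the lowest in the double knockout and 4.95 the highest in Hmgn2-/-; of all genes tested, 10.2% did not overlap there. edgeR called 0 of the 9 members and 0 of the 10 other genes tested in the stretch, as did DESeq2. In both sets 0 had an unadjusted p under 0.05, beside 613 of all genes tested. In that comparison 0.00724% of all 13816 genes were called lower and 0.0362% higher, 6 in all; with replicate number as a block 77 were called, and by DESeq2 54. A p that misses the threshold does not show equal levels, and the standard errors give the differences that 3 libraries a group could miss.

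Against Hmgn1-/-, the double knockout lay apart at both ends of the member list. Birc5 differed by -1.01 (SE 0.06) on the log2 scale, Tmc6 by -1.0 (SE 0.09), Tk1 by -0.87 (SE 0.07) and Syngr2 by -0.74 (SE 0.08). Usp36 differed by 1.03 (SE 0.07), Timp2 by 0.82 (SE 0.16) and Cyth1 by 0.82 (SE 0.18). Every library of the higher line lay above every library of the lower one for these 7 genes, and for C1qtnf1, where 1, 0 and 1 counts in Hmgn1-/- face 45, 34 and 45. Of all genes tested there, 15.0% lay apart in this way. In this comparison 4 members were called lower and 2 higher (Usp36 and C1qtnf1), beside 0.43% and 0.664% of all 13710 genes. Without double knockout replicate 1, or by DESeq2, Timp2 made it 3 higher, and with no filter on low counts Timp2 and Cyth1 made it 4. Hmgn2-/- against Hmgn1-/- gave the same counts, 4 lower and 2 higher, beside 0.256% and 0.0953% of all 13648 genes. The lower count there fell to 3 without Hmgn1-/- replicate 1, to 2 without Hmgn1-/- replicate 2 or 3, and to 1 without Hmgn2-/- replicate 2. Its log2 fold changes were -1.09 (SE 0.10) for Tmc6, -0.98 (SE 0.10) for Birc5, -0.82 (SE 0.10) for Tk1, -0.72 (SE 0.10) for Syngr2 and 1.04 (SE 0.10) for Usp36. Socs3 differed by -0.13 (SE 0.10) there and by -0.15 (SE 0.07) between the double knockout and Hmgn1-/-, with overlapping libraries in both.

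**Figure D2:**
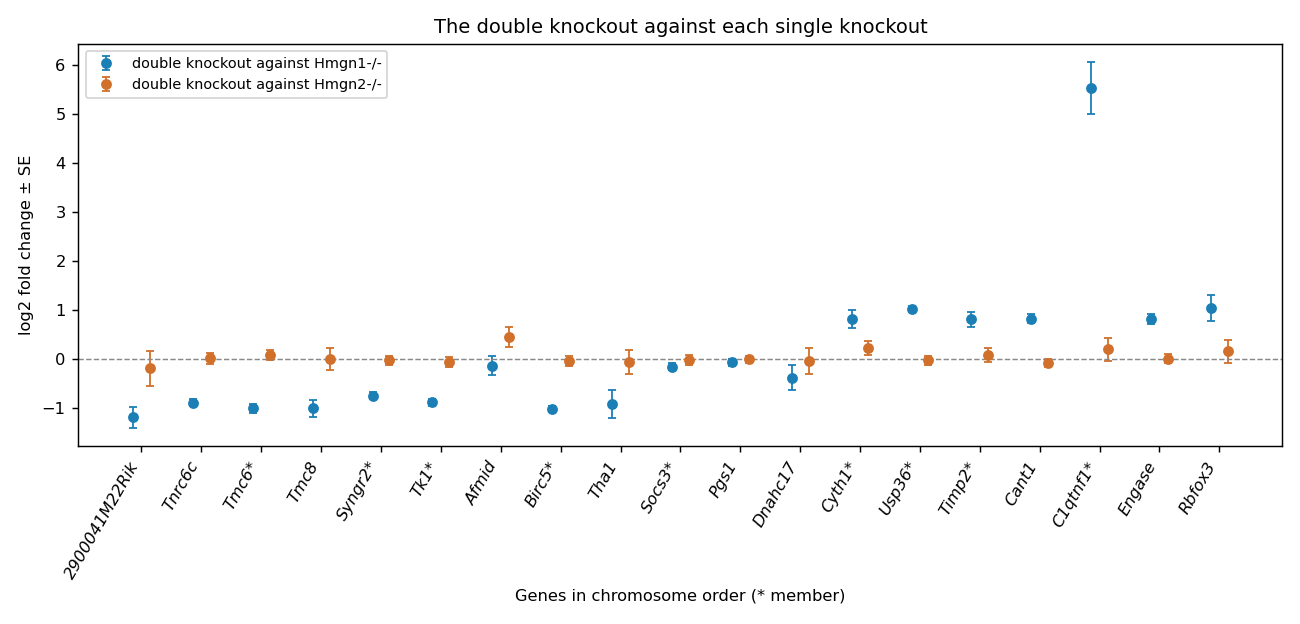
log2 fold change (points, bars are ± SE) of the double knockout against Hmgn1-/- and against Hmgn2-/- for the 19 tested genes of the stretch in chromosome order, members marked by an asterisk. Against Hmgn2-/- the members lie between -0.06 and 0.23, and against Hmgn1-/- the genes from 2900041M22Rik to Dnahc17 lie below 0, down to -1.18, and those from Cyth1 to Rbfox3 above it.

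The other genes between and beside the members lie in a stretch whose ends were set with these levels in view, and 10 of the 14 passed the filter on low counts in every comparison. Near the members low in Hmgn2-/- lies Tnrc6c, a GW182 family gene of microRNA silencing beside Tmc6. Tnrc6c stood at 73.1, 80.6 and 83.2 CPM in WT, 86.4, 84.7 and 78.6 in Hmgn1-/-, 46.3, 49.8 and 36.9 in Hmgn2-/-, and 43.2, 47.8 and 44.4 in the double knockout. Lines with the Hmgn2 edit were low in all 6 libraries and Hmgn1-/- overlapped WT. Tnrc6c fell in Hmgn2-/-, with a log2 fold change of -0.82 (SE 0.11, adjusted p = 0.000502, edgeR), and in the double knockout, with -0.80 (SE 0.07, adjusted p = 2.24e-06). The difference between the lines was tested directly: -0.90 (SE 0.11, adjusted p = 0.00211) for Hmgn2-/- against Hmgn1-/- and -0.88 (SE 0.07, adjusted p = 9.35e-07) for the double knockout against Hmgn1-/-. The first of these calls is lost without Hmgn1-/- replicate 1 (adjusted p = 0.0206), 2 (0.027) or 3 (0.0105), over alternatives that range from 2.87e-11 to 0.027.

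Other neighbours of that end had fewer reads. 2900041M22Rik stood at 3.25, 3.85 and 3.82 CPM in WT, 3.22, 3.68 and 4.13 in Hmgn1-/-, 0.998, 1.85 and 2.85 in Hmgn2-/-, and 1.25, 2.08 and 1.59 in the double knockout. It was low in the lines with the Hmgn2 edit, and it fell in the double knockout, with a log2 fold change of -1.16 (SE 0.22, adjusted p = 0.00134, edgeR). In Hmgn2-/- its log2 fold change was -0.97 (SE 0.30, adjusted p = 0.0469), which passed without Hmgn2-/- replicate 3 (adjusted p = 0.00458; range over alternatives 0.00458 to 0.135). The double knockout against Hmgn1-/- gave -1.18 (SE 0.22, adjusted p = 0.00748). That call is lost without Hmgn1-/- replicate 1 (0.0114), 2 (0.0373) or 3 (0.0263), without double knockout replicate 1 (0.0279) or 3 (0.019), and in a fit of all 12 libraries (0.0496); the alternatives range from 0.000184 to 0.0496. Hmgn2-/- against Hmgn1-/- gave -1.0 (SE 0.30, adjusted p = 0.816) and did not pass. Afmid, the kynurenine formamidase gene, stood at 3.78, 4.98 and 3.75 CPM in WT and 2.03, 2.12 and 1.84 in Hmgn2-/-, with 3.22, 3.15 and 2.61 in Hmgn1-/- and 3.23, 2.80 and 2.16 in the double knockout. All 9 knockout libraries lay below WT. Afmid fell in Hmgn2-/-, with a log2 fold change of -1.03 (SE 0.20, adjusted p = 0.00427, edgeR), a call lost without WT replicate 2 (0.0219) or 3 (0.0115) or Hmgn2-/- replicate 1 (0.0106) or 2 (0.0185), over a range of 0.000725 to 0.0219. It did not pass in Hmgn1-/- (-0.45, SE 0.19, adjusted p = 0.0883) or the double knockout (-0.58, SE 0.20, adjusted p = 0.0422). No difference between lines passed for Afmid: Hmgn2-/- against Hmgn1-/- gave -0.57 (SE 0.19, adjusted p = 0.969) and the double knockout against Hmgn1-/- gave -0.13 (SE 0.20, adjusted p = 0.909).

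Tmc8, the partner gene of Tmc6, stood at 5.22, 5.26 and 5.24 CPM in WT, 7.21, 6.88 and 5.96 in Hmgn1-/-, 2.69, 4.12 and 3.15 in Hmgn2-/-, and 3.97, 3.43 and 2.58 in the double knockout. Like Tmc6, it was above WT in Hmgn1-/- and below it in the other lines. None of its comparisons with WT passed in edgeR: the adjusted p was 0.0733 in Hmgn1-/-, 0.0345 in Hmgn2-/- and 0.0137 in the double knockout (log2 fold change -0.65, SE 0.18). The last passed with replicate number as a block (0.00774) and with no filter on low counts (0.00574), over a range of 0.00574 to 0.0621. Against Hmgn1-/- it was lower in the double knockout by a log2 fold change of -1.0 (SE 0.17, adjusted p = 0.00351, edgeR). This call is lost without Hmgn1-/- replicate 1 (0.0186) or 2 (0.022) or double knockout replicate 2 (0.02) or 3 (0.0107), over a range of 3.13e-05 to 0.022. In Hmgn2-/- against Hmgn1-/- it gave -1.0 (SE 0.18, adjusted p = 0.0452), which passed with the block (0.00547), with no filter (0.0072) and by DESeq2 (0.00142), over a range of 0.00142 to 0.273.

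Between Socs3 and Cyth1 lie Pgs1, which makes the phosphatidylglycerophosphate precursor of cardiolipin, and Dnahc17, an axonemal dynein heavy chain gene that shares exon sequence with it on the opposite strand, so reads from the overlap may have been assigned to either gene. Pgs1 stood at 66.4, 67.4 and 67.4 CPM in WT, 42.9, 40.6 and 39.9 in Hmgn1-/-, 39.5, 38.9 and 39.9 in Hmgn2-/-, and 41.6, 38.2 and 38.5 in the double knockout. All 9 knockout libraries were low, well apart from WT. Pgs1 fell in each line, with log2 fold changes of -0.70 (SE 0.06, adjusted p = 2.93e-06, edgeR) in Hmgn1-/-, -0.76 (SE 0.08, adjusted p = 7.78e-05) in Hmgn2-/- and -0.76 (SE 0.07, adjusted p = 1.64e-06) in the double knockout. Dnahc17 had fewer reads, at 4.10, 4.52 and 2.67 CPM in WT, 2.53, 2.05 and 2.11 in Hmgn1-/-, 1.65, 1.67 and 2.08 in Hmgn2-/-, and 1.82, 2.26 and 1.14 in the double knockout. Every knockout library was again below WT. It fell in the double knockout, with a log2 fold change of -1.10 (SE 0.27, adjusted p = 0.00650, edgeR), a call lost without WT replicate 2 (0.0269) or double knockout replicate 1 (0.0238) or 3 (0.0351), over a range of 0.000391 to 0.0351. In Hmgn1-/- it gave -0.73 (SE 0.23, adjusted p = 0.0272), which passed with the replicate block (0.0086) and without WT replicate 3 (0.00621), over a range of 0.00621 to 0.104. In Hmgn2-/- it gave -1.06 (SE 0.24, adjusted p = 0.0113), which passed without WT replicate 3 (0.0054) or Hmgn2-/- replicate 3 (0.00855), by DESeq2 (0.0029), with no filter (0.00351) and in a fit of all libraries (0.00509), over a range of 0.0029 to 0.0513.

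Among the members low in Hmgn1-/- lie Cant1, a calcium-activated nucleotidase gene, and Engase, which encodes a cytosolic enzyme that trims N-glycans. Cant1 stood at 33.9, 35.7 and 37.3 CPM in WT, 18.6, 21.2 and 18.1 in Hmgn1-/-, 36.1, 35.8 and 35.7 in Hmgn2-/-, and 35.4, 31.3 and 35.7 in the double knockout. Only the Hmgn1-/- libraries stood apart from the other 9. Engase stood at 25.3, 28.05 and 25.1 CPM in WT, 14.8, 11.6 and 15.1 in Hmgn1-/-, 22.3, 24.5 and 26.7 in Hmgn2-/-, and 23.9, 25.1 and 24.8 in the double knockout. Its Hmgn1-/- libraries were likewise the lowest. Cant1 fell in Hmgn1-/-, with a log2 fold change of -0.88 (SE 0.09, adjusted p = 6.41e-06, edgeR), as did Engase, with -0.91 (SE 0.11, adjusted p = 3.26e-05). The double knockout against Hmgn1-/- gave 0.83 (SE 0.09, adjusted p = 3.89e-05) for Cant1 and 0.83 (SE 0.10, adjusted p = 0.000172) for Engase. Hmgn2-/- against Hmgn1-/- gave 0.90 (SE 0.09, adjusted p = 0.000763) for Cant1, lost without Hmgn1-/- replicate 1 (0.0104; range 1.14e-12 to 0.0104). For Engase it gave 0.82 (SE 0.12, adjusted p = 0.0118), which passed with the replicate block (0.000364), without Hmgn2-/- replicate 1 (0.00465) or 3 (0.00248), by DESeq2 (2.1e-06), with no filter (0.00113) and in a fit of all libraries (0.00031), over a range of 2.1e-06 to 0.0778. Against WT, Hmgn2-/- gave 0.02 (SE 0.09) for Cant1 and -0.08 (SE 0.10) for Engase, and neither passed.

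Tha1, a threonine aldolase gene, and Rbfox3, a neuronal splicing factor gene, did not pass in any of the 6 comparisons. Tha1 stood at 1.38, 0.679 and 1.11 CPM in WT and 2.80, 1.67 and 1.47 in Hmgn1-/-, with 1.07, 1.10 and 1.13 in Hmgn2-/- and 1.22, 0.949 and 0.986 in the double knockout. Rbfox3 stood at 1.41, 0.792 and 0.798 in WT, 0.767, 0.812 and 0.688 in Hmgn1-/-, 1.42, 1.63 and 1.07 in Hmgn2-/-, and 1.38, 1.72 and 1.63 in the double knockout. Of the genes too low to test, Lgals3bp, a galectin-binding protein gene between Timp2 and Cant1, gave 11, 13 and 10 counts in WT and 0, 0 and 0 in Hmgn1-/-. It gave 6, 2 and 3 counts in Hmgn2-/- and 3, 0 and 0 in the double knockout. Tmem235 had 81 counts over the 12 libraries, Gm11747 had 5 and 6030468B19Rik had 0.

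Set in chromosome order, and grouped after these values were seen, the tested genes form stretches. The 8 genes from 2900041M22Rik to Birc5 span 244 kb (start 117611247, end 117855743) and include 4 members. Their median level was 102% of WT in Hmgn1-/-, 55.3% in Hmgn2-/- and 56.7% in the double knockout. In Hmgn2-/- the 8 ran from 47.9% (Afmid) to 63.4% (Tmc8), and in the double knockout from 45.1% (2900041M22Rik) to 65.5% (Afmid). Tha1 and Socs3, which come next, stood between 99.5% and 104% of WT in Hmgn2-/- and the double knockout, and at 188% and 113% in Hmgn1-/-. Pgs1 and Dnahc17 then stood at 61.4% and 59.3% in Hmgn1-/-, 58.8% and 47.8% in Hmgn2-/-, and 58.8% and 46.2% in the double knockout. The 6 genes from Cyth1 to Engase span 325 kb (start 118164170, end 118489209) and include the other 4 members that were low in a line. Their median was 53.4% of WT in Hmgn1-/-, from 1.87% (C1qtnf1) to 56.7% (Cyth1), against 92.6% in Hmgn2-/- and 98.2% in the double knockout. Rbfox3, the last, stood at 75.6%, 137% and 158% in the 3 lines. The gaps between neighbouring stretches are 12.2, 16.0, 33.5 and 0.6 kb.

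**Figure D3:**
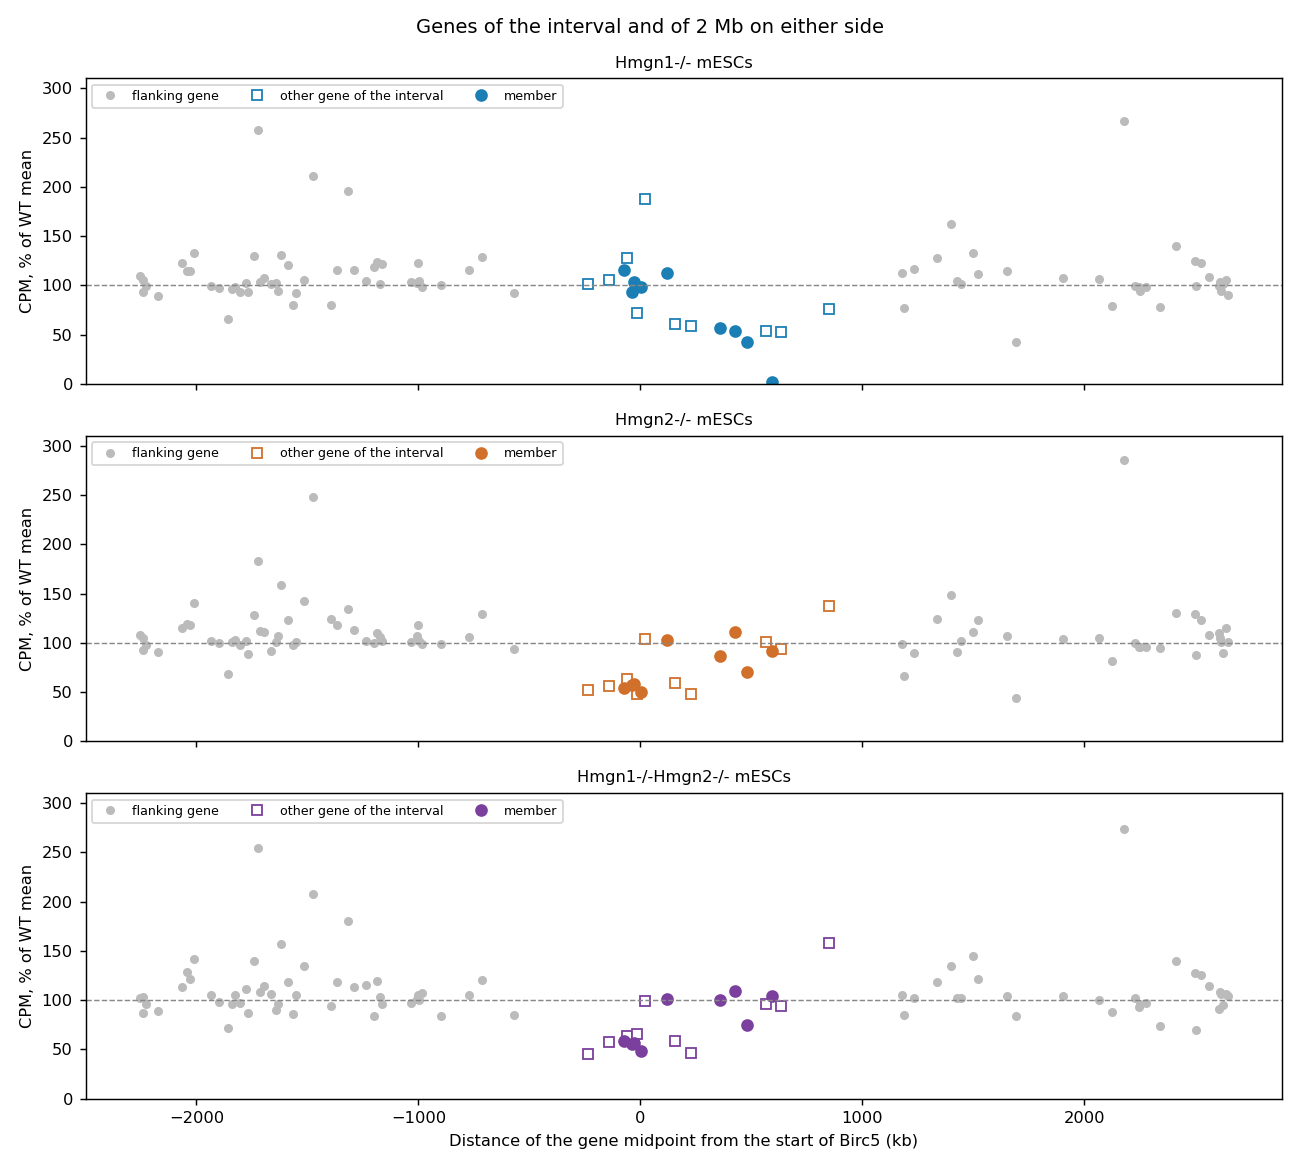
Mean TMM-scaled CPM of each tested gene as a percentage of its WT mean, against the distance in kb of the gene's midpoint from the start of Birc5, for the 3 knockout lines; filled circles are members, open squares other genes of the stretch and grey points genes within 2 Mb on either side. The 8 genes from 2900041M22Rik to Birc5 have medians of 55.3% in Hmgn2-/- and 56.7% in the double knockout, and those from Cyth1 to Engase lie at or under 56.7% in Hmgn1-/-.

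The flanks put these levels beside the genes around them. Of 48 genes tested in the 2 Mb before the stretch, edgeR called 1 lower and 6 higher in Hmgn1-/-, 0 and 4 in Hmgn2-/-, and 0 and 8 in the double knockout; 2, 1 and 6 were lower at an unadjusted p under 0.05, and DESeq2 called 1, 1 and 2 lower. Of 31 tested after it, edgeR called 4, 3 and 4 higher in these lines and 0 lower in each, with 2, 2 and 0 lower at an unadjusted p under 0.05 and 0 by DESeq2. Over all genes tested, edgeR called 10.1%, 6.66% and 10.2% lower and 7.28%, 3.3% and 7.79% higher in these lines. The flank counts moved with single libraries and with other alternatives. Before the stretch the higher count was 3 in Hmgn1-/- without WT replicate 2 or 3 or Hmgn1-/- replicate 1, 1 in Hmgn2-/- without WT replicate 3 and 2 without WT replicate 1 or 2 or Hmgn2-/- replicate 2. For the double knockout it was 3 without its replicate 2, 4 without its replicate 3 or WT replicate 3, and 5 without WT replicate 2. The same count rose to 9 in Hmgn1-/- without WT replicate 1 or with the replicate block. In Hmgn2-/- it rose to 6 in a fit of all libraries. In the double knockout it rose to 10 without WT replicate 1 and to 9 by DESeq2, with no filter or with the block. After the stretch the higher count was 1 in Hmgn2-/- without any 1 of the WT replicates or Hmgn2-/- replicate 2, 5 without Hmgn2-/- replicate 3, and 2 in the double knockout without its replicate 2. With the block it was 6 in Hmgn1-/- and 6 in the double knockout. The lower count before the stretch was 0 in Hmgn1-/- without WT replicate 2 or 3 or Hmgn1-/- replicate 2 or 3. Without WT replicate 1 it was 1 in Hmgn2-/- and 2 in the double knockout, and that after the stretch was 1 in Hmgn1-/-. With the replicate block the lower count was 2 before the stretch in the double knockout and 1 after it in Hmgn1-/-. The median log2 fold change before the stretch was 0.06, 0.09 and 0.07 in Hmgn1-/-, Hmgn2-/- and the double knockout, and after it 0.07, 0.04 and 0.06. For the other genes of the stretch it was -0.44, -0.70 and -0.61, for the members -0.09, -0.50 and -0.42, and for all genes tested 0.00, 0.01 and 0.00. The members' median in Hmgn1-/- was -0.06 without WT replicate 3 and -0.14 without Hmgn1-/- replicate 2, and without WT replicate 3 it was -0.33 in Hmgn2-/- and -0.25 in the double knockout.

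The nearest tested gene before the stretch is Sept9, a septin gene 248.9 kb away, with -0.12 (SE 0.07), -0.08 (SE 0.08) and -0.24 (SE 0.06) against WT. The last had an adjusted p of 0.0103 in edgeR and passed with the replicate block (0.00471), without WT replicate 1 (0.00586), with no filter (0.00497) and by DESeq2 (0.0059), over a range of 0.00471 to 0.063. Sec14l1, the next before it, was called higher in each line, by 0.37 (SE 0.07, adjusted p = 0.000809), 0.38 (SE 0.08, adjusted p = 0.00494) and 0.27 (SE 0.06, adjusted p = 0.00212). The call in Hmgn2-/- is lost without WT replicate 1 (0.0203), 2 (0.0368) or 3 (0.0218) or Hmgn2-/- replicate 2 (0.033), over a range of 0.000172 to 0.0368. That in the double knockout is lost without WT replicate 2 (0.0127) or double knockout replicate 2 (0.0113) or 3 (0.0108), over a range of 0.000237 to 0.0127. The third, 2810008D09Rik, passed only in Hmgn1-/- without WT replicate 1 (0.00132; range 0.00132 to 0.82; adjusted p = 0.302 with all libraries). The nearest after it is Cbx2, a Polycomb gene 111.4 kb past Rbfox3, with 0.18 (SE 0.07), 0.00 (SE 0.09) and 0.08 (SE 0.07). Cbx2 and Cbx8 passed in no line against WT under any alternative. Farther out, Rnf157 was higher in every line, by 1.07 (SE 0.15, adjusted p = 0.000153, edgeR) in Hmgn1-/-, 1.31 (SE 0.16, adjusted p = 0.000255) in Hmgn2-/- and 1.05 (SE 0.15, adjusted p = 0.000115) in the double knockout. Aatk was too, by 1.41 (SE 0.28, adjusted p = 0.00183), 1.53 (SE 0.24, adjusted p = 0.00142) and 1.44 (SE 0.29, adjusted p = 0.00186). Its calls are lost in Hmgn1-/- without replicate 2 of that line (0.0131; range 0.000295 to 0.0131) and in the double knockout without replicate 2 (0.012; range 0.000255 to 0.012). Trim65, on the other side, was higher in Hmgn1-/- by 1.33 (SE 0.33, adjusted p = 0.00758) and in the double knockout by 1.29 (SE 0.28, adjusted p = 0.00373), and by 0.83 (SE 0.30, adjusted p = 0.0800) in Hmgn2-/-, where it passed under no alternative (range 0.06 to 0.238). The first is lost by DESeq2 (0.0114) and without WT replicate 2 (0.032) or 3 (0.0212) or Hmgn1-/- replicate 1 (0.0606), 2 (0.0103) or 3 (0.0139), over a range of 0.0014 to 0.0606. The second is lost without WT replicate 2 (0.0172) or 3 (0.0143) or double knockout replicate 1 (0.0102), 2 (0.0165) or 3 (0.0162), over a range of 0.00144 to 0.0172.

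Runs of neighbouring genes called lower occur elsewhere too. Counting runs of at least 4 genes in a row along each chromosome, leaving out genes that averaged under 50 counts, Hmgn1-/- against WT had 11 such runs, Hmgn2-/- 8 and the double knockout 14. Chromosome 11 held 1 of them in Hmgn1-/-, the 5 such genes from Cyth1 to Engase (C1qtnf1 has fewer counts), and 1 in Hmgn2-/-, the 4 genes from Syngr2 to Birc5. It held 0 in the double knockout, where Tmc8 and Afmid, not called, break the row. The longest run anywhere had 8 genes in Hmgn1-/-, 21 in Hmgn2-/- and 14 in the double knockout. Hmgn2-/- against Hmgn1-/- had 3 runs of lower genes, 0 of them on chromosome 11. For the double knockout against Hmgn1-/- there were 4, among them the 6 genes from 2900041M22Rik to Tk1. Members take part in each of these chromosome 11 runs, so the runs are a description.

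Lists of genes with related functions show how each member stood beside its pathway. Of all genes tested against WT, edgeR called 10.1% lower and 7.28% higher in Hmgn1-/-. The shares were 6.66% and 3.3% in Hmgn2-/-, and 10.2% and 7.79% in the double knockout. Of 10 tested chromosomal passenger and apoptosis inhibitor genes beside Birc5, edgeR called 0 lower in any line; Rcc2 was higher in Hmgn1-/- by 0.22 (SE 0.05, adjusted p = 0.00327), lost without WT replicate 2 (0.0109) or 3 (0.0247) or Hmgn1-/- replicate 2 (0.021), over a range of 0.00015 to 0.0247. Its change of 0.24 (SE 0.07, adjusted p = 0.0371) in Hmgn2-/- passed by DESeq2 (0.0099) and in a fit of all libraries (0.00303), over a range of 0.00303 to 0.156. That of 0.18 (SE 0.05, adjusted p = 0.0116) in the double knockout passed by DESeq2 (0.00459), with no filter (0.00711) and without double knockout replicate 1 (0.00985), over a range of 0.00459 to 0.0769. The higher count there was 1 without double knockout replicate 1 or 3 and 2 with no filter. Unadjusted p under 0.05 was met by 3, 1 and 2 of the 10 in Hmgn1-/-, Hmgn2-/- and the double knockout, and DESeq2 called 1 in each. Incenp, which anchors survivin in the passenger complex, had 209, 212 and 206 CPM in WT and 221, 213 and 212 in Hmgn2-/-, a log2 fold change of 0.05 (SE 0.07). Of 13 thymidylate and deoxynucleotide supply genes beside Tk1, edgeR and DESeq2 called 0 in any of the 6 comparisons; 6, 3 and 5 had an unadjusted p under 0.05 in the comparisons with WT and 0 in those between lines. With the replicate block Dctd was called higher in Hmgn1-/- and the double knockout, and without WT replicate 1 Dut was in Hmgn1-/-. Rrm2, a ribonucleotide reductase subunit, had a log2 fold change of 0.03 (SE 0.07) in Hmgn2-/- and 0.09 (SE 0.05) in the double knockout. Of 19 general proliferation genes, edgeR called 0 lower in any comparison, with 2 higher in Hmgn1-/- (Plk1 and Mcm5), 0 in Hmgn2-/- and 1 in the double knockout (Mcm5), and the median log2 fold change was 0.06, 0.04 and 0.00 in the 3 lines; 8, 2 and 6 had an unadjusted p under 0.05 in either direction and DESeq2 called 3, 1 and 3. The higher count in Hmgn1-/- was 0 without WT replicate 3 and 1 without any other single library. In Hmgn2-/- it was 1 without Hmgn2-/- replicate 1 or 3, and in the double knockout 0 without WT replicate 3 or double knockout replicate 2 or 3. With the replicate block it was 5 in Hmgn1-/- and 2 in the double knockout, where Plk1 passed (adjusted p = 0.00975; range over alternatives 0.00652 to 0.0512).

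Of the LIF, STAT3 and SOCS signalling genes beside Socs3, 21 tested in Hmgn1-/- and the double knockout against WT and 22 in Hmgn2-/-, 10 were called higher and 1 lower (Jak2) in Hmgn1-/-, 5 higher in Hmgn2-/- and 9 higher in the double knockout, beside 7.28%, 3.3% and 7.79% of all genes higher. At an unadjusted p under 0.05 there were 15, 11 and 14 in either direction, and DESeq2 called 11, 6 and 10. The Jak2 call (-0.64, SE 0.15) is lost without WT replicate 2 (adjusted p = 0.0121) or 3 (0.0293) or Hmgn1-/- replicate 1 (0.0225) or 2 (0.0258), over a range of 0.00171 to 0.0293. The higher count in Hmgn1-/- was 8 without WT replicate 3 or Hmgn1-/- replicate 1 or 3, and 11 with the replicate block. In Hmgn2-/- it was 3 without WT replicate 2 and 7 without Hmgn2-/- replicate 3. In the double knockout it was 6 without WT replicate 3 or double knockout replicate 1 or 2, and 10 by DESeq2 or with the block. A fit of all libraries gave 8, 7 and 6. Klf4, a STAT3 target, had 140.3, 114 and 123 CPM in WT, 249, 252 and 216 in Hmgn1-/-, 221, 205 and 178 in Hmgn2-/-, and 216, 215 and 200.1 in the double knockout. All knockout libraries lay above WT. Its log2 fold changes were 0.93 (SE 0.08, adjusted p = 1.94e-06, edgeR), 0.69 (SE 0.10, adjusted p = 0.000899) and 0.74 (SE 0.07, adjusted p = 5.70e-06). Gbx2, another STAT3 target, was higher by 0.91 (SE 0.10, adjusted p = 1.26e-05), 0.86 (SE 0.11, adjusted p = 0.000291) and 0.97 (SE 0.09, adjusted p = 5.34e-06). Between knockout lines edgeR called 0 of this list; 2, 5 and 0 had an unadjusted p under 0.05 in Hmgn2-/- against Hmgn1-/-, the double knockout against Hmgn1-/- and the double knockout against Hmgn2-/-, and DESeq2 called 0.

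Of 13 nucleolar genes, Myc and Usp42 beside Usp36, Myc was called higher in Hmgn1-/- and the double knockout and 0 were lower in any line by edgeR, with 2, 1 and 2 at an unadjusted p under 0.05 and 1 called by DESeq2 in each line. The Myc call in Hmgn1-/- (adjusted p = 0.00814) is lost without Hmgn1-/- replicate 1 (0.0194), 2 (0.0321) or 3 (0.0385) and in a fit of all libraries (0.0122), over a range of 5.42e-05 to 0.0385. Its change of 0.44 (SE 0.11, adjusted p = 0.0194) in Hmgn2-/- passed by DESeq2 (0.00466), with no filter (0.00657), in a fit of all libraries (0.00392) and without Hmgn2-/- replicate 3 (0.00511), each making the higher count 1, over a range of 0.00392 to 0.0885. Nucleophosmin (Npm1) had 3171, 2712 and 2896 CPM in WT and 2861, 2835 and 3070.0 in Hmgn1-/-, a log2 fold change of 0.00 (SE 0.06). Among 18 cytohesin and ARF exchange factor genes beside Cyth1, 2 were called lower in Hmgn1-/- (Psd4 and Iqsec1) and 1 in each other line (Psd4). The shares of all genes called lower in the 3 lines were 10.1%, 6.66% and 10.2%. This list's count in Hmgn1-/- was 1 without WT replicate 2 or 3 or Hmgn1-/- replicate 3, and 4 without WT replicate 1 or with the replicate block. In the double knockout it was 3 without WT replicate 1 and 2 with the block, where Iqsec1 passed (adjusted p = 0.00377; range over alternatives 0.00256 to 0.0535). Psd4, which also activates ARF6, stood at 12.4, 18.4 and 17.04 CPM in WT, 4.49, 3.53 and 5.18 in Hmgn1-/-, 4.64, 4.92 and 3.75 in Hmgn2-/-, and 4.51, 5.20 and 4.63 in the double knockout. It was low in all 9 knockout libraries and fell in every line, with log2 fold changes of -1.84 (SE 0.17, adjusted p = 3.58e-06, edgeR), -1.81 (SE 0.18, adjusted p = 5.63e-05) and -1.73 (SE 0.15, adjusted p = 2.24e-06).

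Of 14 tested TIMP, metalloproteinase and related genes beside Timp2, 2 were called lower (Timp1 and Timp3) and 3 higher (Mmp11, Mmp14 and Mmp15) in Hmgn1-/-, 1 and 2 in Hmgn2-/- (Timp3; Mmp11 and Mmp15), and 1 and 4 in the double knockout (Timp3; the same 3 and Itgb1). For this list and those below, the shares of all genes were 10.1%, 6.66% and 10.2% lower and 7.28%, 3.3% and 7.79% higher. In Hmgn1-/- the lower count was 1 without WT replicate 2 or 3 or Hmgn1-/- replicate 1 or 2, and the higher count 1 without Hmgn1-/- replicate 1. The replicate block added Itga3 to the first and Itgb1 to the second. In Hmgn2-/- the lower count was 2 without WT replicate 1 or Hmgn2-/- replicate 3, and the higher count 1 without any 1 of the WT replicates or Hmgn2-/- replicate 1 or 2. The double knockout's lower count was 2 without WT replicate 1, and the higher count 2 without WT replicate 2 or double knockout replicate 1 or 2. Timp3, another metalloproteinase inhibitor, stood at 9.85, 11.03 and 12.8 CPM in WT, 1.99, 1.86 and 2.38 in Hmgn1-/-, 1.84, 2.57 and 2.32 in Hmgn2-/-, and 2.30, 2.12 and 3.15 in the double knockout. All knockout libraries were far under WT. Timp3 fell in every line, with log2 fold changes of -2.42 (SE 0.16, adjusted p = 1.98e-07, edgeR), -2.31 (SE 0.18, adjusted p = 1.43e-05) and -2.14 (SE 0.17, adjusted p = 7.97e-07). Of the C1q and TNF related genes, 5 tested in each single knockout and 6 in the double knockout, 1 was called lower (Adipoq) and 1 higher (C1qtnf4) in Hmgn1-/- and in Hmgn2-/-. Of the 6 in the double knockout, 2 were lower (Adipoq and C1qtnf9) and 2 higher (C1qtnf4 and C1ql4). Adipoq had means of 0.832 CPM in WT, 0.0639 in Hmgn1-/-, 0.103 in Hmgn2-/- and 0.0213 in the double knockout. Its call in Hmgn2-/- is lost without WT replicate 2 or 3, which leaves 0 lower. The lower count was 2 in either single knockout without WT replicate 1, 2 in Hmgn2-/- without its replicate 1 or 3, and 1 in the double knockout without its replicate 1. There the higher count was 1 without WT replicate 2 or 3 or any 1 of that line's replicates. C1qtnf4 was higher in Hmgn1-/- by 1.40 (SE 0.19, adjusted p = 0.000119, edgeR), by 1.34 (SE 0.21, adjusted p = 0.00133) in Hmgn2-/- and by 1.34 (SE 0.19, adjusted p = 0.000127) in the double knockout. Of 6 tested synaptogyrin and synaptophysin genes, Syp was called lower in Hmgn1-/- (-0.88, SE 0.21, adjusted p = 0.00643) and in the double knockout (-1.11, SE 0.21, adjusted p = 0.00114). The first is lost without WT replicate 3 (0.0391) or Hmgn1-/- replicate 2 (0.0311) or 3 (0.0299), over a range of 0.00134 to 0.0391. For Hmgn2-/- the Syp change of -0.90 (SE 0.23, adjusted p = 0.0192) passed with no filter (0.00845) and in a fit of all libraries (0.00503), over a range of 0.00503 to 0.0924. None was called higher with all libraries, and 1 was in Hmgn1-/- without WT replicate 1. Syngr1 had a log2 fold change of 0.17 (SE 0.09) in Hmgn2-/-. Of the TMC family and partner genes, 5, 6 and 6 tested against WT in the 3 lines, edgeR called 0; 2, 1 and 3 had an unadjusted p under 0.05 and DESeq2 called 0.

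**Figure D4:**
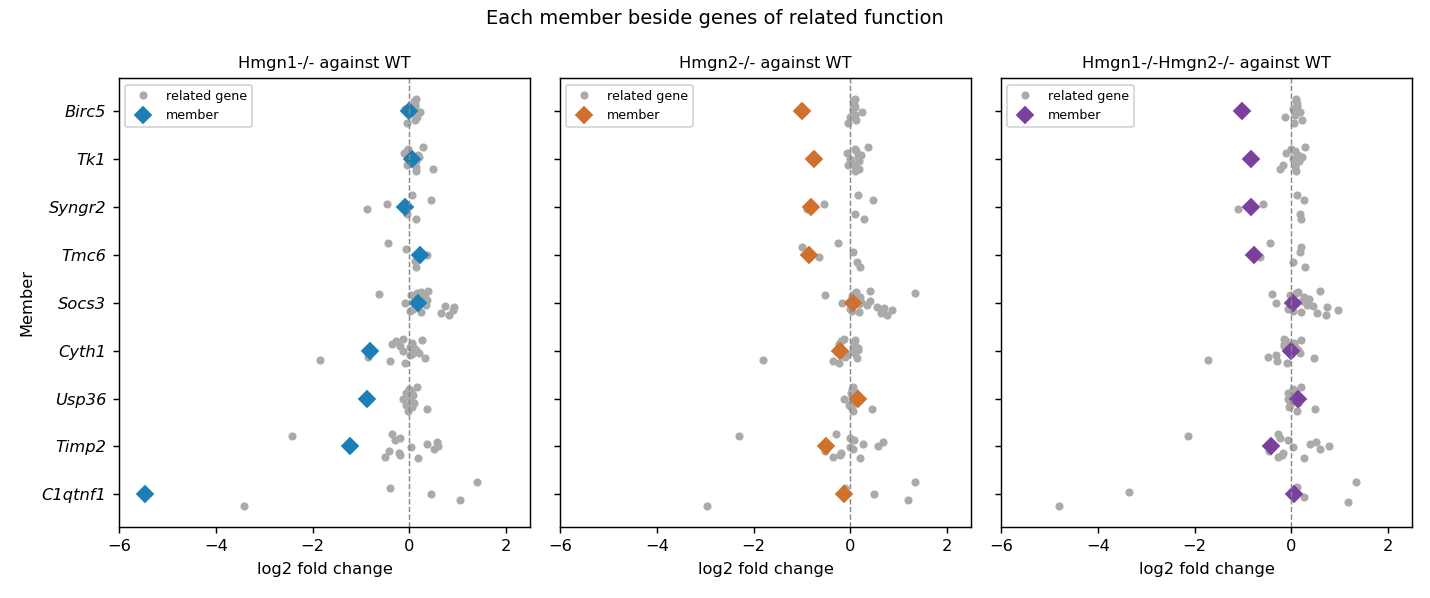
log2 fold change against WT of each member (diamonds) beside the tested genes of its related list (grey points, 1 per gene) for the 3 knockout lines. Birc5 and Tk1 lie at or below -0.76 in Hmgn2-/- and the double knockout, apart from the genes of their lists.

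Across the 12 libraries, Pearson's r of log2 CPM between members of the same stretch ran from 0.93 (Tmc6 and Syngr2) to 0.99 (Tk1 and Birc5) in the stretch that ends at Birc5, and from 0.77 (Usp36 and Timp2) to 0.95 (Usp36 and C1qtnf1) in that from Cyth1 to Engase. Between members of these stretches it ran from -0.75 (Tmc6 and Usp36) to -0.06 (Syngr2 and Timp2), each with n = 12. The points share libraries, depth and group, they cluster by line, and the genes were selected for differing between groups, so no p is given. Outside the stretch, the genes most like the mean of the 9 members among 11547 compared were Gm2a (r = 0.98), Nab2 (0.97), Rhox6 (0.96), Crlf2 (0.96) and 4930500J02Rik (0.95), on chromosomes 11, 10, X, 5 and 2. Gm2a, which encodes the GM2 ganglioside activator, had a mean of 16.2 CPM in WT, 10.6 in Hmgn1-/-, 9.85 in Hmgn2-/- and 9.74 in the double knockout. The mean of each of these genes was lower in all 3 knockout lines than in WT. The mean they were matched to joins members low in different lines, with r down to -0.75 between them. Likeness to that mean is therefore not likeness to each member.

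Markers of other cell types moved with the groups as well. The 8 primitive endoderm markers, all detected and led by Lama1 in WT and both single knockouts, summed to 142, 181 and 186 CPM in WT, 433, 363 and 366 in Hmgn1-/-, 501, 458 and 331 in Hmgn2-/-, and 929, 915 and 846 in the double knockout. Col4a1 led in the double knockout. In Hmgn1-/-, Hmgn2-/- and the double knockout 7, 7 and 8 of the 8 were called higher than in WT, beside 7.28%, 3.3% and 7.79% of all genes. The 8 trophoblast markers summed to 335, 386 and 525 CPM in WT and to between 80.7 and 154 in the knockout libraries; Krt8 led in WT, and none was at 0. The 8 fibroblast markers, led by Thy1, summed to between 17.8 and 22.2 CPM in WT and 5.83 and 8.99 in the knockouts, with Lum at 0 in every group and Postn also at 0 in Hmgn1-/- and Hmgn2-/-. Their part in the levels of the chromosome 11 genes was not tested.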

How the data were processed

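Poly-A-selected RNA of 12 mESC libraries, 3 in each of 4 groups, was sequenced, and the authors deposited counts per gene with no normalization. Per the submitters' processing notes, reads were aligned to mm10 with STAR; the counting program, annotation and strand setting are not given in the sources used here. The 9 members and the lists of related genes and markers were chosen with earlier results of these data known.

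Counts were fitted in edgeR 4.0.16 (limma 3.58.1, R 4.3.3) for the 6 pairs of groups, 6 libraries a fit, with TMM scaling (factors from 0.970 to 1.02), filterByExpr and the quasi-likelihood test. Library totals ran from 17337908 to 31448468. P-values were adjusted by Benjamini-Hochberg over all genes tested. Calls were made at an adjusted p under 0.01, with or without a log2 fold change of at least 1 in size. Named genes were drawn from the members, Hmgn1 and Hmgn2, every other gene of the stretch with counts, the 3 nearest tested genes of each flank of 2 Mb and those called there, called genes of each list with up to 4 others of most counts, and the 5 genes most like the members. 6030468B19Rik, which has no counts, is named to complete the 14.

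Replicate numbers were checked as pairs on residual levels: same-numbered samples all had r above 0.1 (from 0.143 upward) in 4 comparisons, with Hmgn2-/- against WT (lowest 0.0797) and the double knockout against Hmgn1-/- (lowest 0.0714) as the exceptions. Every same-numbered r was positive in all 6 comparisons. The main fits used no replicate block.

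Alternatives were DESeq2 1.42.0, RLE scaling, no filter, a fit of all 12 libraries, the replicate block, no fold limit and leaving out each library. Of 23412 genes, 21560 matched the RefSeq table by symbol and 1656 by synonym; strand overlaps come from GENCODE. The fit was tested on simulated data, whose outcome is not given here.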

Additional observations from a re-analysis of the deposited data

Results flagged for a closer look

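For other genes of the stretch, whose ends were set with these levels in view, the direct test found differences between the Hmgn2-/- and Hmgn1-/- lines. Tnrc6c differed by a log2 fold change of -0.90 (Hmgn2-/- against Hmgn1-/-), and Cant1, toward the other end of the stretch, by 0.90. The Tnrc6c call is lost without Hmgn1-/- replicate 1 (adjusted p = 0.0206, edgeR), 2 (0.027) or 3 (0.0105), over alternatives from 2.87e-11 to 0.027, and the Cant1 call without Hmgn1-/- replicate 1 (0.0104), over 1.14e-12 to 0.0104. Both lines were compared with the same WT libraries elsewhere, while this test uses the knockout libraries only.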

How the results depend on the processing

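Among the counts and medians listed here, medians near 0 in the double knockout against Hmgn2-/- changed sign. So did some single genes with changes near 0, such as Afmid in the double knockout against Hmgn1-/- and Cant1 in Hmgn2-/- against WT. Why calls changed was not tested.

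Without the fold limit, genes called lower numbered 1399 in Hmgn1-/-, 936 in Hmgn2-/- and 1443 in the double knockout against WT, where 707, 615 and 706 passed with it. They numbered 35 in Hmgn2-/- and 59 in the double knockout against Hmgn1-/-, where 16 and 22 passed with it. Members called lower then numbered 4 in each of these 5 comparisons, and other genes of the stretch called numbered 3, 3, 4, 2 and 5.

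With DESeq2 and its Wald test, other genes of the stretch called with the fold limit numbered 1 in Hmgn1-/-, 2 in Hmgn2-/- and 3 in the double knockout against WT. They numbered 1 in Hmgn2-/- against Hmgn1-/- and 2 in the double knockout against Hmgn1-/-. Genes called lower in the double knockout against Hmgn2-/- numbered 2. With no filter on low counts, other genes called with the fold limit numbered 1 in Hmgn1-/- and 2 in Hmgn2-/- against WT. They then numbered 1 in Hmgn2-/- against Hmgn1-/- and 2 in the double knockout against Hmgn1-/-.

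In a single fit of 12 libraries, 1 member and 2 other genes were called with the fold limit in Hmgn2-/- against WT. With RLE scaling and the fold limit, 2 other genes were called in the double knockout against Hmgn1-/-. With the replicate block and the fold limit, 1 other gene was called in Hmgn2-/- against Hmgn1-/- and 2 in the double knockout against Hmgn1-/-. With both, 2 genes were lower in the double knockout against Hmgn2-/- in place of 1. Without the fold limit, the block moved the genes called there from 6 to 77. Against WT it moved them from 2412 to 3396 in Hmgn1-/- and from 2544 to 3126 in the double knockout. For Hmgn2-/- against Hmgn1-/- the move was from 48 to 69. In the comparisons where 1 same-numbered pair had r under 0.1, the block moved them from 1400 to 1334 (Hmgn2-/- against WT) and from 150 to 408 (double knockout against Hmgn1-/-). In the second of these it also took members called higher from 2 to 4, and called Lifr and Krt8 higher and Klf4 lower. It also called 1 metalloproteinase list gene higher and 2 mESC markers lower, among them Esrrb (adjusted p = 0.000483, edgeR). In the other 4, the block's effect on calls of named genes is printed beside many of them, at times without its value. It also called Krt8 higher in Hmgn2-/- against Hmgn1-/- (adjusted p = 4.04e-05, edgeR). In the double knockout against Hmgn2-/- it called 8 primitive endoderm markers higher in place of 1, among them Col4a1 (8.05e-07) and Lama1 (1.9e-06).

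Leaving out 1 library at a time gave these lowest and highest values, with every count of calls in this paragraph made with the fold limit. In Hmgn1-/- against WT, the median log2 fold change of the other genes ran from -0.56 to -0.30. In Hmgn2-/- against WT, members called ran from 0 to 1, other genes called from 0 to 2, and the members' median from -0.60 to -0.33. In the double knockout against WT, members called ran from 0 to 1, other genes called from 0 to 2, and the members' median from -0.53 to -0.25. In Hmgn2-/- against Hmgn1-/-, genes called lower ran from 10 to 20 and members called lower from 1 to 2. In the double knockout against Hmgn1-/-, members called lower ran from 0 to 2 and other genes called from 0 to 1. In the double knockout against Hmgn2-/-, the median of the members ran from -0.0287 to 0.0791 and that of the other genes from -0.0608 to 0.0243.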
